A study of Mus musculus with 12 samples.

Results

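Lmo4 and Klk10 are genes of the carotid wall whose expression is known to respond to blood flow, and on these arrays their values after partial ligation differed in opposite directions. All probes that the platform annotation gives to Lmo4 or Klk10 were taken, which were 2 probes for Lmo4 and 1 for Klk10, 3 of 45281 probes and 2 of 19057 named genes in all. The members were chosen by their measured differences between ligated and untouched arteries, so their ligation values are given as a description and carry no test. The KO minus WT differences are not the values that choice names, and were tested. Those in RCA alone or in LCA alone use arrays that also enter the ligation differences, so their p-values are not independent of the choice. The interaction is built from the same ligation differences, so its p-values are not independent of the choice either.

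Arteries came from C57Bl/6J mice, either wild type (WT) or deficient in fibulin-5 (KO, titled FibVKO and described by the submitters as a knockdown), a matrix protein of elastic fibres. In both genotypes the left common carotid artery (LCA) was partially ligated, which brings disturbed flow, and the right common carotid artery (RCA) was left untouched. Both arteries were taken 1 day later, and RNA was hybridised to Illumina one-colour arrays. The groups WT RCA, WT LCA, KO RCA and KO LCA held 3 arrays each, 12 in all. The labels used here state no age, sex or allele, nor whether mice were pooled. They also do not tell whether the 3 arrays of a group are 3 mice, and the p-values therefore cover the variation among these arrays, which may be technical.

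LMO4 is a LIM-only protein, made of LIM domains without a DNA-binding domain of its own, and acts as an adaptor that joins LDB proteins and transcription factors in the nucleus. KLK10 is a secreted protein of the kallikrein-related peptidase family, whose genes lie side by side in 1 cluster, and it was first studied in epithelia. In arterial endothelium steady flow keeps flow-protective genes such as the transcription factors Klf2 and Klf4 high, whereas disturbed flow lowers them and raises genes of inflammation and vessel remodelling. In RNA from a mixture of cells, fewer cells of a type and less RNA per cell cannot be told apart.

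RefSeq places Lmo4 on chromosome 3, from 144188530 to 144205255 on the minus strand of GRCm38.p6, and Klk10 on chromosome 7, from 43781054 to 43785410 on the plus strand. The 250 bases before the RefSeq start of each gene are shown because both genes were chosen for their response to flow, and a match to CACCC on either strand, the core bound by Kruppel-like factors, is in capitals. The Lmo4 window is chr3:144205256-144205505, minus strand, and the Klk10 window is chr7:43780804-43781053, plus strand.
Lmo4: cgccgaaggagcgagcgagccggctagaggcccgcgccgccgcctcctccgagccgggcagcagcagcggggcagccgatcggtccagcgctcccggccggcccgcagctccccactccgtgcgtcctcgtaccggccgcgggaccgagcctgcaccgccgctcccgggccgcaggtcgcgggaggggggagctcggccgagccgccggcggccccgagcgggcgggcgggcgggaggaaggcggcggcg
Klk10: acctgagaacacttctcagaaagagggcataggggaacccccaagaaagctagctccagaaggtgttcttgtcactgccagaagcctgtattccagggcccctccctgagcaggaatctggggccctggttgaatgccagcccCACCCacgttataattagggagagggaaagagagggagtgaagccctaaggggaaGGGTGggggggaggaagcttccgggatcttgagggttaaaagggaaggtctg

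The Klk10 window held 2 CACCC matches, 107 and 52 bases before the start, and the Lmo4 window held 0. The 2 further Lmo4 starts in RefSeq lie within the gene. Their windows overlap each other and held 2 matches each, with a match in common. A match to CACCC or its reverse GGGTG was found in 52.0% of the 32851 windows of this length. Neither gene's windows held GAGACC, the shear stress response element, present in 13.7% of all windows, or TGACTCA, the AP-1 site, present in 4.46%. The Lmo4 window was 82.4% G and C and the Klk10 window 56.0%, where the median window had 52.4%. These matches describe the letters only.

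Values are the deposited linear intensities, in arbitrary units, and log2 differences were computed from them. As a guide to background, the 95th percentile of 1504 olfactory and vomeronasal receptor probes was taken on each array, and it lay between 95.7 and 126. The lowest intensity was 72.4 and the median between 93.5 and 93.6 on each array. WT LCA replicate 3 and WT RCA replicate 3 had the lowest median correlations with the other arrays, 0.628 and 0.725, against 0.748 to 0.836 for the remaining arrays. Results are therefore also given without these 2 arrays. The single Fbln5 probe lay from 80.6 to 97.4, under the receptor level on all 12 arrays, and so checks nothing about the knockout.

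Endothelial markers were well represented, and smooth muscle markers were uneven, with several near background. Of 12 endothelial markers, 8 to 10 exceeded the receptor level on all 3 arrays of a group, Pecam1 and Egfl7 among them. Of 10 smooth muscle markers, 2 did in WT RCA and 0 in WT LCA, against 3 in KO RCA and 6 in KO LCA. Cnn1, Lmod1 and Des, which encode contractile and filament proteins of smooth muscle, each exceeded it on 1 of 12 arrays and Tagln on 5. Acta2 and Mylk exceeded it on 11 arrays, Myocd on 10, Smtn on 8, and Myh11 and Synpo2 on 7. None of 8 epithelial markers exceeded it on all 3 arrays of any group, with Epcam and Krt14 on 0 of 12 arrays. Group means ran from 92.9 to 103 for Myh11, from 91.7 to 110 for Tagln and from 93.5 to 98.4 for Cnn1, near the receptor level. Those of Pecam1 ran from 1084 to 1793 and those of Egfl7 from 444 to 1158. Acta2, from 188 to 999, was the brightest smooth muscle marker. The share of each cell type in the RNA was not tested.

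The brighter Lmo4 probe, ILMN_2642403, which the annotation ties to the RefSeq transcript, was above the receptor level on all 12 arrays. Its intensities were 162, 172 and 111 on WT RCA replicates 1, 2 and 3. On WT LCA replicates 1, 2 and 3 they were 226, 419 and 367. All 3 ligated WT arteries lay above all 3 untouched ones, a separation that 4.4% of the 25796 tested probes showed in that direction. KO RCA gave 266, 245 and 333, and KO LCA gave 1425, 534 and 779. The ligated KO arteries again lay above the untouched ones without overlap, as 8.9% of tested probes did, and KO LCA replicate 1 was the highest of the 12 arrays.

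Group means of this probe were 148 ± 32.5 (SD, n = 3) in WT RCA and 337 ± 99.9 in WT LCA, against 281 ± 46.2 in KO RCA and 913 ± 460 in KO LCA. From low to high the order was WT RCA, KO RCA, WT LCA and KO LCA. The untouched KO arteries and the ligated WT arteries overlapped, from 245 to 333 and from 226 to 419. WT RCA lay below both, and KO LCA above both, without overlap. LCA minus RCA was 1.16 ± 0.35 (SE) log2 units in WT and 1.59 ± 0.35 in KO, or 2.24-fold and 3.01-fold. Probes with LCA above RCA and no overlap in both genotypes made up 0.791% of those tested.

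The dimmer Lmo4 probe, ILMN_1247702, is annotated to a cDNA record that is not among the RefSeq transcripts of the table, and it lay close to background. It read 102, 117 and 98.0 in WT RCA, 120, 111 and 124 in WT LCA, 110, 131 and 128 in KO RCA, and 132, 185 and 131 in KO LCA. It exceeded the receptor level on 10 of 12 arrays. The WT groups overlapped, and the KO groups were separated by 0.0827 units only. LCA minus RCA was 0.16 ± 0.14 in WT and 0.26 ± 0.14 in KO, in the direction of the brighter probe, and the KO value was 0.099 without KO LCA replicate 2. Across the 12 arrays the probes correlated with r = 0.589 and a rank correlation of 0.769. After each group's mean was removed, r was -0.402, and the deviations had the same sign on 6 of 12 arrays. The order of arrays within a group was thus not shared by the probes. The arrays share their normalization, and these correlations are a description.

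Klk10, probe ILMN_1243407, showed its highest values in untouched WT arteries. WT RCA gave 977, 472 and 499 on replicates 1, 2 and 3, and WT LCA gave 147, 122 and 160. The lowest untouched WT artery was 312 units above the highest ligated one, and 6.54% of tested probes were separated in that direction. KO RCA gave 256, 372 and 134, and KO LCA gave 109, 96.2 and 128. The untouched KO arteries were also above the ligated ones, with a gap of 5.43 units, and KO RCA replicate 3 lay near the ligated level. In KO, 11.2% of tested probes were separated in that direction. KO LCA replicate 2 was the single array below its receptor level for this probe.

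Group means of Klk10 were 649 ± 284 (SD, n = 3) in WT RCA, 254 ± 119 in KO RCA, 143 ± 19.5 in WT LCA and 111 ± 16.1 in KO LCA. WT RCA stood above every other group without overlap. KO RCA and WT LCA overlapped, from 134 to 372 and from 122 to 160, and so did WT LCA and KO LCA. LCA minus RCA was -2.11 ± 0.37 (SE) log2 units in WT and -1.08 ± 0.37 in KO, or 0.232 and 0.473 of the RCA level. The share of tested probes with LCA below RCA and no overlap in both genotypes was 1.19%. With single arrays left out, the KO value lay between -1.48 and -0.74, the first without KO RCA replicate 3 and the second without replicate 2 of that group. The relative spread was wider in untouched than in ligated arteries, with SDs of 43.7% and 46.8% of the mean in WT and KO RCA against 13.6% and 14.5% in LCA. The ligated values also lay closer to the receptor level, and the part of this in their spread was not tested.

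By replicate number, LCA minus RCA had the same sign on all 6 numbered comparisons for the brighter Lmo4 probe and for Klk10. For Lmo4 it ranged from 0.48 to 1.72 in WT and from 1.13 to 2.42 in KO. For Klk10 it ranged from -2.73 to -1.64 in WT and from -1.95 to -0.06 in KO. The smallest of these came from number 3 of the KO mice, where Klk10 was 134 in RCA and 128 in LCA. The labels do not say that equal numbers mark 1 mouse.

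The untouched RCA compares the genotypes without ligation. Lmo4 was higher in KO on the brighter probe without overlap between groups, a log2 difference of 0.94 ± 0.35 (SE), or 1.92-fold with a 95% interval from 1.11 to 3.31. Its unadjusted p was 0.0245 in limma and its adjusted p = 1, so the difference did not pass over the 25796 probes tested. The dimmer probe differed by 0.22 ± 0.14, its groups overlapped, and its adjusted p = 1 in limma. Klk10 was lower in KO without overlap, by -1.39 ± 0.37, at 0.381 of the WT level with an interval from 0.215 to 0.674. Its unadjusted p was 0.00378 in limma, the 106th smallest of 25796, and its adjusted p = 0.897. In this comparison 0 of 25796 probes passed in limma (0%), whereas 1115 lay under 0.05 before adjustment. Groups did not overlap for 6.25% of probes with KO higher and 5.34% with KO lower.

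The ligated LCA compares the genotypes under disturbed flow. The brighter Lmo4 probe differed by 1.36 ± 0.35, or 2.58-fold in KO with an interval from 1.49 to 4.45, and the groups did not overlap. Its unadjusted p was 0.00326 in limma and its adjusted p = 0.376. Without KO LCA replicate 1, the highest array, the difference was 0.98. The dimmer probe differed by 0.32 ± 0.14 without overlap, with adjusted p = 0.750, and by 0.15 without KO LCA replicate 2. Klk10 differed by -0.36 ± 0.37 with overlapping groups and adjusted p = 0.836, and the interval of -1.19 to 0.46 includes both a fall and a rise. In this comparison 11 of 25796 probes passed in limma, 0.0426%, and no member was among them. Groups did not overlap for 7.61% of probes with KO higher and 5.35% with KO lower.

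Averaged over both arteries, the brighter Lmo4 probe was 1.15 ± 0.25 log2 units higher in KO (2.22-fold, interval 1.51 to 3.27) and Klk10 was -0.88 ± 0.26 (0.544 of WT, interval 0.363 to 0.815). The dimmer Lmo4 probe differed by 0.27 ± 0.10. Adjusted p-values in limma were 0.187, 0.425 and 0.612 for the brighter Lmo4 probe, Klk10 and the dimmer Lmo4 probe, so none passed, where 32 of 25796 probes did, 0.124%. With the brightest kept probe standing for each of 15395 genes, 23 genes had a larger difference than Lmo4 and 23 had a lower one than Klk10. Thus the members lay near opposite ends of the genotype differences as well, without passing the test. On both sides without overlap, KO was higher for 1.21% of probes, the brighter Lmo4 probe among them.

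The interaction asked whether ligation moved the genes by different amounts in KO and in WT. It was 0.43 ± 0.50 for the brighter Lmo4 probe, with an interval from -0.69 to 1.54, and 0.10 ± 0.19 for the dimmer probe. For Klk10 it was 1.03 ± 0.52, with an interval from -0.14 to 2.19 and an unadjusted p of 0.0773 in limma. The positive sign for Klk10 means a smaller difference between arteries in KO, where the untouched mean was lower than in WT. Adjusted p-values in limma were 0.919 for the brighter Lmo4 probe, 0.930 for the dimmer and 0.919 for Klk10. Single arrays weighed on these values: the brighter Lmo4 probe gave 0.046 without KO LCA replicate 1, 0.16 without WT LCA replicate 1 and 0.75 without KO LCA replicate 2. Klk10 gave 0.63 without KO RCA replicate 3. Of all probes 0 passed in limma (0%) and 934 lay under 0.05 before adjustment, so a difference in the ligation effect was not detectable for these genes with 3 arrays a group.

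**Figure D1:**
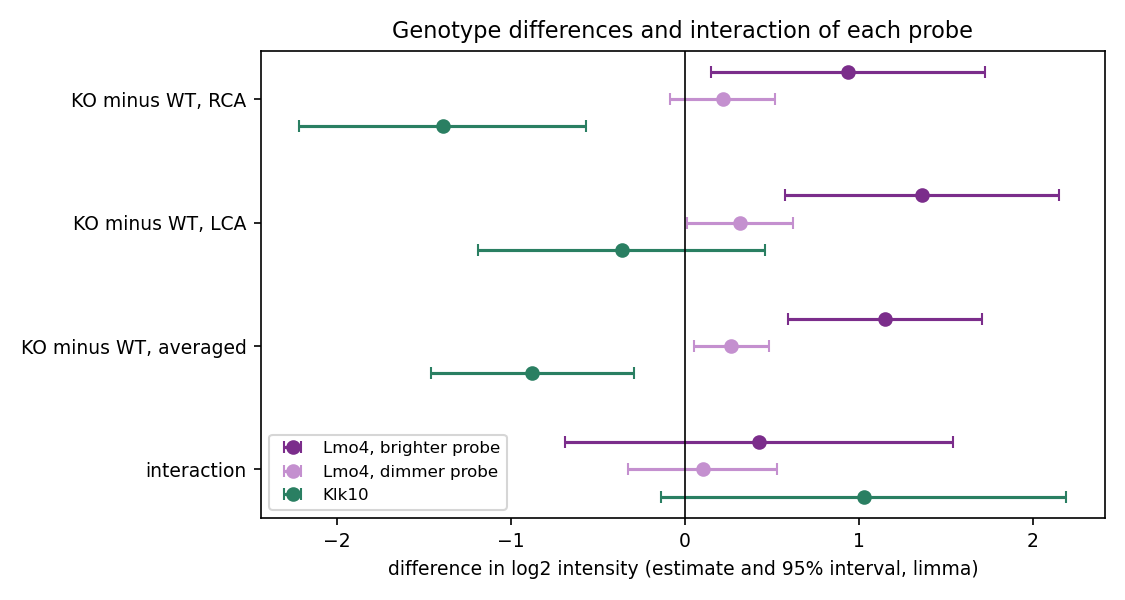
Difference in log2 intensity (horizontal axis) of each probe in the 4 tested comparisons (vertical axis), with points for the estimate and bars for the 95% interval in limma. Averaged over both arteries, the interval lay above 0 for the brighter Lmo4 probe (0.59 to 1.71) and below 0 for Klk10 (-1.46 to -0.30), before adjustment over all probes.

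Over the 12 arrays, the brighter Lmo4 probe and Klk10 correlated with r = -0.782 and a rank correlation of -0.902, which the choice of genes that move in opposite directions largely fixes. After group means were removed r was -0.105. Across arrays, the genes most like Lmo4 were Adamtsl1 (r = 0.961), Cope (0.913), Npm3-ps1 (0.904), Usp49 (0.894) and Tmem131l (0.893). Adamtsl1 encodes a matrix protein related to the ADAMTS enzymes and Cope a subunit of the COPI vesicle coat. Adamtsl1 and Usp49 exceeded the receptor level on 2 of 12 arrays each and Tmem131l on 4, so these are likenesses near background. Cope exceeded it on all 12 and Npm3-ps1 on 10. The least like were Defb5 (-0.896), Cyren (-0.896) and Trerf1 (-0.889). Defb5 exceeded the receptor level on 0 of 12 arrays and so lay at background, whereas Cyren exceeded it on 7 and Trerf1 on 9.

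Among the genes most like Klk10 were Tcim (r = 0.938), the potassium channel gene Kcnn4 (0.912), Ramp2 (0.908), Pcdhgb7 (0.903) and Serpina1b (0.900). RAMP2 is the receptor activity-modifying protein that makes a receptor for adrenomedullin in endothelium. Ramp2 was above the receptor level on all 12 arrays and averaged 837 ± 585 (SD, n = 3) in WT RCA and 256 ± 87.1 in WT LCA, against 428 ± 70.2 in KO RCA and 216 ± 13.9 in KO LCA. Its order of groups was that of Klk10. Tcim exceeded the receptor level on 5 of 12 arrays, Kcnn4 on 8, Pcdhgb7 on 2 and Serpina1b on 11, so the likeness of Tcim and Pcdhgb7 also lies near background. The least like were Nfkbib (-0.889), the matricellular gene Ccn2 (-0.882) and Klf15 (-0.861), of which Nfkbib exceeded it on 3 arrays and Klf15 on 5. Ccn2 averaged 227 ± 88.6 in WT RCA and 790 ± 278 in WT LCA, against 832 ± 98.1 in KO RCA and 1862 ± 384 in KO LCA, which is the order of Lmo4 with the middle groups exchanged. The 95th percentile of the absolute r over the 15395 genes was 0.649 for Lmo4 and 0.634 for Klk10. The genes named as most or least like Lmo4 or Klk10 were picked from the extremes, so their r lies beyond it by choice. Each r also holds the ligation differences by which the members were chosen. For these genes r was not computed with group means removed, and the likenesses are a description.

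No gene of the LMO4 partner list passed a test. Of 29 genes of the LMO family and the LIM complex, 27 had a probe and 23 were tested. In the ligation effect averaged over genotypes, 0 passed in limma, 1 was higher and 3 lower at an unadjusted p under 0.05, which is 17.4%. Over all 15395 genes it was 10.4%, and the median was -0.04 in the list against -0.00 over all genes. Lmo2, a LIM-only relative known for blood and endothelial development, differed by 0.64 ± 0.25 with ligation, adjusted p = 0.446 in limma. It averaged 816 ± 381 in WT RCA and 1416 ± 291 in WT LCA, against 407 ± 30.6 in KO RCA and 576 ± 273 in KO LCA. Lmo2 thus had higher means after ligation, as Lmo4 did, and lower means in KO, unlike Lmo4, by -1.14 ± 0.25 averaged over arteries with adjusted p = 0.191 in limma.

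The adaptor gene Ldb1, whose protein binds the LIM domains of LMO4, averaged 228 ± 106 in WT RCA and 158 ± 12.5 in WT LCA, against 172 ± 31.5 in KO RCA and 180 ± 27.0 in KO LCA, and all 4 groups overlapped. Ldb2 averaged 138 ± 19.3, 143 ± 51.2, 114 ± 13.7 and 101 ± 5.04 in the same order. Ssbp3, which stabilises LDB proteins, averaged 163 ± 56.3 in WT RCA and 97.8 ± 8.16 in WT LCA, near background, and its other probes differed by less. Lmo1 exceeded the receptor level on 5 of 12 arrays and Lmo3 on 0.

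Around Klk10, the kallikrein genes measured on both sides lay near background, except Klk8 in untouched arteries. Klk11 precedes Klk10 and Klk9 and Klk8 follow it in the RefSeq order on chromosome 7. Klk8, from 43797532 to 43803826, exceeded the receptor level on 10 of 12 arrays and averaged 188 ± 41.5 (SD, n = 3) in WT RCA and 110 ± 16.7 in WT LCA, against 133 ± 15.6 in KO RCA and 108 ± 11.2 in KO LCA. Its ligation difference averaged over genotypes was -0.53 ± 0.12, adjusted p = 0.368 in limma. Klk11, from 43774617 to 43779263, exceeded the level on 5 arrays and averaged 123 ± 16.6, 99.0 ± 9.33, 101 ± 11.0 and 92.1 ± 5.90 in the same order. Both had lower means in LCA in each genotype, as Klk10 did. The same held near background for Klk7, Klk9, Klk12 and Klk13. Averaged over genotypes, the Klk11 probe given differed by -0.21 and its other kept probe by -0.40. Further along the cluster Klk4 and Klk15, each above the level on 3 arrays, differed the other way, by 0.15 and 0.16 averaged over genotypes, and these are named after their values were seen. Klk9, between Klk10 and Klk8, exceeded it on 1 array, as did Klk1, and Klk6 exceeded it on 0. Members of this family resemble each other in sequence, and whether a probe also binds a relative was not tested.

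Of 41 genes of the kallikrein family, its inhibitors and its receptors, 37 had a probe and 26 were tested. With ligation averaged over genotypes 0 passed in limma, 3 were higher and 5 lower at an unadjusted p under 0.05, which is 30.8% where all genes gave 10.4%. Part of this share lies near background. Among these genes Klk5 exceeded the receptor level on 0 arrays, Klk4 and Klk15 on 3 each, Klk11 on 5 and Serpina3n on 6. Klk8 exceeded it on 10 arrays, and Htra1 and Plat on 11 each. The median was -0.03. F2r encodes PAR1, a receptor that proteases activate by cleavage. It averaged 267 ± 33.1 in WT RCA and 312 ± 106 in WT LCA, against 402 ± 32.8 in KO RCA and 538 ± 54.7 in KO LCA. KO minus WT was 0.71 ± 0.14 averaged over arteries, adjusted p = 0.142 in limma, and did not pass. Without WT LCA replicate 2 it was 0.85 with adjusted p = 0.0141 in limma, so the outcome depended on a single array.

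Flow-sensitive genes of arterial endothelium gave a setting for both members. Of 42 listed genes, 39 had a probe and 38 were tested. With ligation averaged over genotypes, 0 passed in limma, 3 were higher and 11 lower at an unadjusted p under 0.05, with a median of 0.03. Among all 15395 genes 601 were higher and 1004 lower at that level, 10.4%. The gene lists, this one included, were chosen with earlier results of these data known, so their shares are not independent of those results. Klf2 differed by -0.85 ± 0.11, Klf4 by -1.39 ± 0.21, and Nos3, the endothelial nitric oxide synthase gene, by -0.63 ± 0.18, with adjusted p-values of 0.282, 0.282 and 0.414 in limma. None of the 3 passed in this fit. The other kept probes of Klf4 differed by less, -0.75 and -0.73, and those of Nos3 by -0.75 to -0.53. Without KO RCA replicate 3, Klf2 was -0.75 with adjusted p = 0.0271 in limma, so its outcome depended on a single array. These 3 had the direction of Klk10. Angpt2, a growth factor that loosens vessels, differed by 0.28 ± 0.11, in the direction of Lmo4, and exceeded the receptor level on 7 of 12 arrays. Bmp4, a bone morphogenetic protein of disturbed flow, differed by 0.46 ± 0.33 in the same direction. Icam1 did not keep 1 direction. Its LCA minus RCA was 0.59 ± 0.20 in WT and -0.38 ± 0.20 in KO, or 0.11 ± 0.14 averaged.

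Between genotypes, averaged over arteries, KO minus WT was 0.13 ± 0.11 for Klf2, -0.22 ± 0.21 for Klf4 and -0.01 ± 0.18 for Nos3, where Klk10 was -0.88 ± 0.26. Whether Klk10 differs from these genes was not tested. In this comparison 2 list members rose and 1 fell in limma, Icam1 by 0.96 ± 0.14 (adjusted p = 0.0427), Ccn2 by 1.60 ± 0.21 (adjusted p = 0.0255) and Slco2a1 by -0.98 ± 0.14 (adjusted p = 0.0451). Among all 15395 genes, 16 rose and 3 fell, and the list was chosen with earlier results of these data known. Icam1 encodes a leukocyte adhesion molecule and Slco2a1 a prostaglandin transporter, and Slco2a1 is named here after its values were seen. None of these calls held in every alternative analysis: of 22, the call of Ccn2 was lost in 10, that of Icam1 in 13 and that of Slco2a1 in 17. Where lost, adjusted p in limma ran from 0.0531 to 0.107, from 0.0527 to 0.215 and from 0.0505 to 0.144, in that order. Leaving out a single array kept the call of Ccn2 only for WT RCA replicate 2, WT LCA replicates 2 and 3 and KO LCA replicate 3, that of Icam1 only for WT LCA replicates 2 and 3 and KO LCA replicate 3, and that of Slco2a1 only for WT RCA replicate 2. Angpt2 differed by 0.43 ± 0.11 and Bmp4 by 0.56 ± 0.33, without passing.

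**Figure D2:**
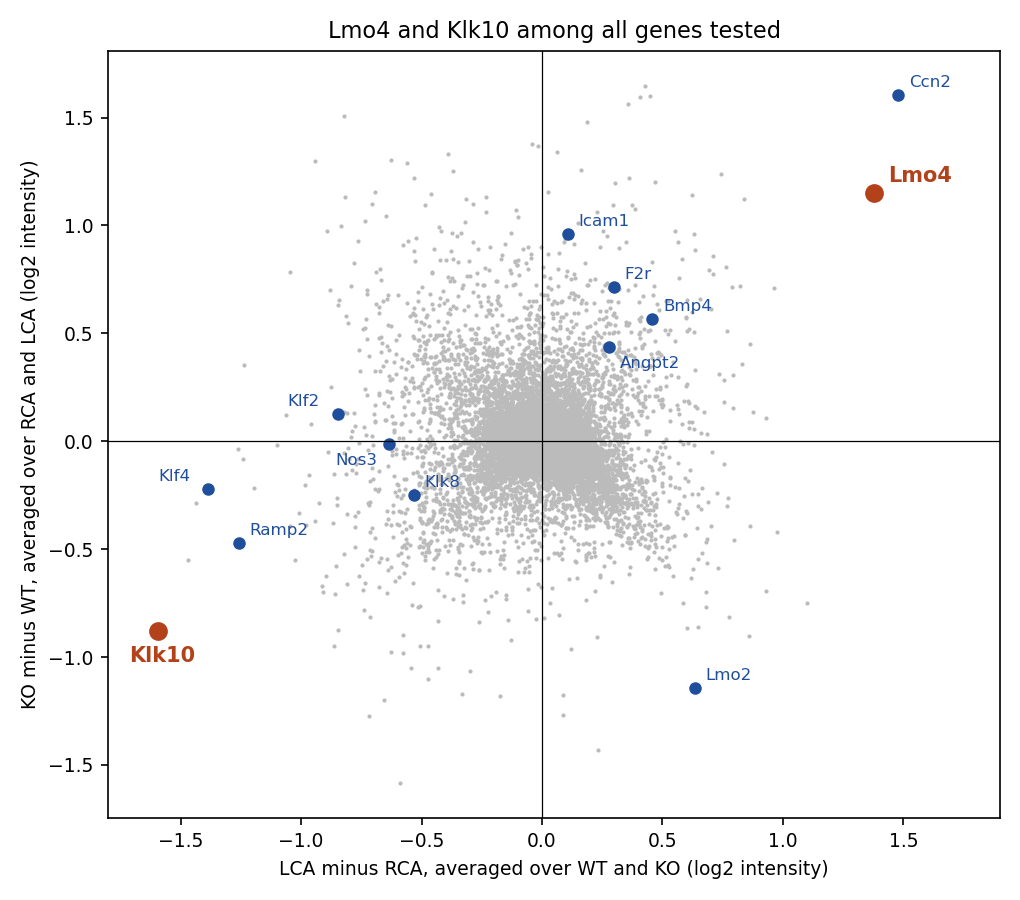
LCA minus RCA averaged over genotypes (horizontal axis) against KO minus WT averaged over arteries (vertical axis), both in log2 intensity, for 15395 genes (grey), named genes (blue) and the members (red). Lmo4 lies at 1.38 and 1.15 and Klk10 at -1.59 and -0.88, towards opposite corners, and Klf2 and Nos3 lie left of 0 at little genotype difference.

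Marker levels also differed between the groups. The summed intensity of the 12 endothelial markers ran from 4260 to 5265 in WT RCA and from 3743 to 4247 in WT LCA, against 3997 to 5091 in KO RCA and 3398 to 6034 in KO LCA. The mean log2 level of these markers differed between LCA and RCA by -0.20 in WT and -0.17 in KO, and between KO and WT by -0.16 in RCA and -0.13 in LCA. It was thus lower in each comparison in which the mean of Klk10 was lower. Single markers went the other way, such as Pecam1, with 1143 in KO RCA and 1793 in KO LCA. Against WT, the mean log2 level of the 4 measured erythrocyte markers was higher by 0.95 in KO RCA. In KO LCA the mean log2 level of the 10 fibroblast markers was higher by 0.53 than in WT LCA. That of the 10 smooth muscle markers was higher by 0.37. Not each marker was higher: Lum, a fibroblast marker, averaged 124 in WT LCA and 98.3 in KO LCA. Acta2, the smooth muscle actin gene, averaged 188 in WT RCA and 287 in WT LCA, against 748 in KO RCA and 999 in KO LCA. It was higher after ligation and in KO, as the brighter Lmo4 probe was. The smooth muscle markers were not uniform in this. Smtn had the same directions, at 103, 121, 119 and 327 in that order of groups, whereas Mylk, at 126, 192, 144 and 142, did not. Nor were these directions limited to smooth muscle markers. The fibroblast markers Dcn, at 117, 181, 163 and 403, and Dpt, at 95.2, 106, 112 and 236, had them too. Lum did not, nor did Pi16, at 658, 207, 558 and 334. Between LCA and RCA in KO, the mean log2 level differed by -0.59 for erythrocyte markers and by 0.34 for fibroblast markers. In WT it differed by 0.07 and -0.19. The part of these markers in the values of Lmo4 and Klk10 was not tested.

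**Figure D3:**
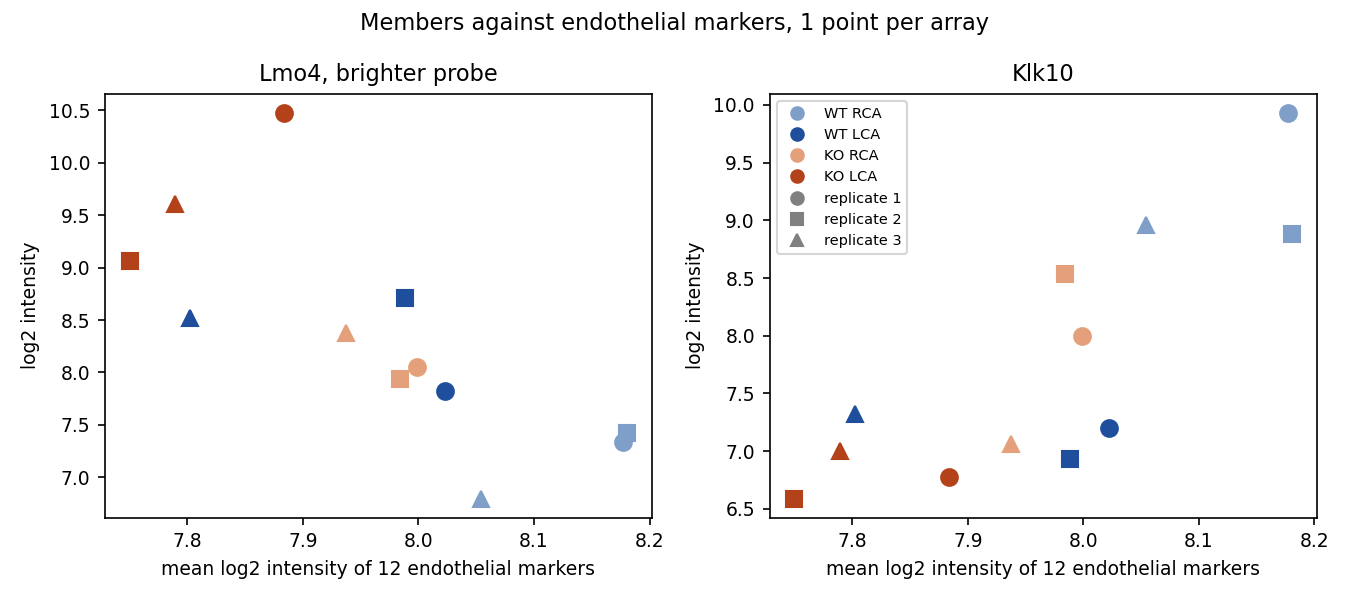
Log2 intensity (vertical axis) of the brighter Lmo4 probe and of Klk10 against the mean log2 intensity of 12 endothelial markers (horizontal axis), 1 point per array, with colours for groups and symbols for replicate numbers. The WT RCA arrays had the highest marker levels, from 8.05 to 8.18, and the ligated KO arrays lay between 7.75 and 7.88.

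Without WT LCA replicate 3 and WT RCA replicate 3 together, the brighter Lmo4 probe had LCA minus RCA of 0.88 in WT, and KO minus WT of 0.74 in RCA and 1.45 in LCA. Klk10 then had -2.34, -1.54 and -0.28 in the same comparisons. No member passed in a tested comparison without these arrays.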

How the data were processed

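Total RNA from carotid arteries was extracted with a Qiagen miRNeasy kit, amplified to biotinylated cRNA and hybridised to Illumina arrays, per the labels' protocols. The deposited values are linear intensities for 45281 probes on 12 arrays. Their lowest and highest values were equal on all arrays, and the sorted values differed by an SD of at most 0.29 intensity units. The arrays had thus been brought to nearly 1 distribution by the authors. The sources used here name no scanner software, background correction or normalization. Probes were named from the platform annotation: 34885 had 1 gene symbol, 18 several and 10378 none.

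Intensities were taken to log2 without a further normalization. The 25796 probes with 1 symbol and at or above their array's median on at least 3 arrays were fitted in limma 3.58.1 (R 4.3.3) with 1 mean per group and eBayes. P-values were adjusted by Benjamini-Hochberg over all 25796, with a threshold of 0.05, in 4 tested comparisons. All 3 member probes passed the filter. For counts of genes, the brightest kept probe stood for each of 15395 genes. The fit was tested on simulated data. The number of arrays limits the precision.

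The members and gene lists were chosen with earlier results of these data known. Named genes were the members, partners and relatives chosen by role, and the 5 genes most and 3 least correlated with each member over the 12 arrays, leaving out predicted genes and olfactory or vomeronasal receptors. Alternatives covered normalization, the filter, background, weights, the replicate block and each array left out. Promoter windows came from RefSeq, GRCm38.p6. Probe and protein sequences were not used here.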

Additional observations from a re-analysis of the deposited data

How the results depend on the processing

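The direction of each member probe held in every alternative, with 1 exception: the interaction of the dimmer Lmo4 probe was -0.062 without KO LCA replicate 2, in a range of -0.062 to 0.19 over the arrays left out. No member passed a tested comparison in any alternative in limma. Adjusted p ran from 0.116 to 0.398 for the brighter Lmo4 probe and from 0.273 to 0.659 for Klk10 in KO minus WT averaged over arteries. Subtracting the 5th percentile of each array as background, with a pseudocount of 16, moved LCA minus RCA in WT to 1.75 for the brighter Lmo4 probe, 0.42 for the dimmer and -2.87 for Klk10. In KO it gave 0.51 for the dimmer probe and -1.89 for Klk10, and averaged over genotypes 0.47 and -2.38. KO minus WT became 1.48 (brighter Lmo4) and 0.54 (dimmer) in RCA, -0.81 (Klk10) and 0.63 (dimmer) in LCA, and 0.59 (dimmer) averaged, and the interaction of the brighter probe 0.11.

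Counts of probes past the threshold were less stable. KO minus WT in LCA, 11 probes, gave 4 with array weights, 1 with one probe per gene, and 0 with a trended robust fit, with only the compared groups or with background subtracted. Leaving out single arrays gave 0 (without KO LCA replicate 1 or 3) to 25 (without WT LCA replicate 1). KO minus WT averaged, 32 probes, gave 1 with the trended robust fit, 18 with one probe per gene and 5 (without KO RCA replicate 3) to 45 with single arrays left out. KO minus WT in RCA, 0 probes, gave 0 to 5, the interaction 0 to 3, and LCA minus RCA 0 to 10 in WT, 0 to 5 in KO and 0 to 3 averaged. Array weights gave 1 in WT. Leaving out both arrays of lowest correlation, chosen after seeing the data, gave 7 in KO minus WT in RCA, 11 in KO minus WT averaged, 11 in LCA minus RCA in WT and 4 in LCA minus RCA averaged. The cause was not tested.

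Equal replicate numbers were not taken as pairs, since same-numbered deviations correlated at 0.041, 0.056 and 0.081 in WT and at -0.015, -0.0039 and 0.040 in KO, not all over 0.1, and the labels do not settle it. Each WT array correlated best with its own number, and not each KO array. With the replicate block 10 probes passed in KO minus WT in LCA and 25 in KO minus WT averaged, and no member did.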
